A study of Mus musculus with 18 samples.

Results

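The 34 genes described here encode the chaperones, sensors, degradation factors and targets of the unfolded protein response (UPR) and of the integrated stress response (ISR). They were taken by symbol from a list of both responses, through the first 18 characters of each Ensembl ID in the deposited table, and are 34 of its 54347 genes. They fall into 5 roles: 13 endoplasmic reticulum (ER) chaperones and folding enzymes, 4 genes for the UPR sensors and Xbp1, 4 genes of ER-associated degradation (ERAD), 5 ISR regulators, and 8 targets of ATF4 in amino acid metabolism and transport.

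The study set leukemia stem cells from marrow with an altered stromal niche against cells from control marrow, with redox and energy balance as the stated interest. The mutant group is 5 mice with the genotype Prx1-Cxcl12-mutant, numbered 6, 7, 8, 10 and 12, and the control group is 4 mice that the labels call Ctrl or WT, numbered 1 to 4. All 9 mice carried leukemia, were of strain C57BL/6JRj, and gave 7000 sorted bone marrow cells each on day 30 after induction. The polyadenylated RNA of each mouse was made into 2 technical libraries by a low-input method that reads the 3' end of transcripts. Cxcl12 encodes a chemokine by which marrow stroma retains blood-forming cells, and Prx1 is a gene of mesenchymal stromal cells, not of blood cells. Not given in the sources used here: any Cre or other alleles behind the genotype names, the leukemia driver, the sort markers, and the age and sex of the mice.

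The UPR is the answer of a cell to unfolded protein in the ER. IRE1 (gene Ern1) splices the Xbp1 transcript, ATF6 is cut from the membrane to become a transcription factor, and PERK (gene Eif2ak3) phosphorylates the initiation factor eIF2alpha. ATF6 and spliced XBP1 raise chaperone and ERAD genes, whereas phosphorylated eIF2alpha lowers general translation and favours that of Atf4, whose product raises genes of amino acid supply. PERK shares this last arm with kinases that sense amino acid shortage, haem shortage and viral RNA, and the shared arm is called the ISR. In normal blood-forming cells both responses are known to bear on the survival of stem cells under stress. Splicing of Xbp1, cleavage of ATF6, phosphorylation of eIF2alpha and translation of Atf4 do not show in 3' gene counts, so the values below are transcript levels only.

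The promoters of these genes were searched for the motifs of the 2 arms, and are given here because the roles are compared below. RefSeq promoters (GRCm38.p6, 250 bases before to 50 bases after each start, 300 in all) were matched for 30 of the 34 genes. The ER stress element, the site of ATF6 and XBP1 with the factor NF-Y, was searched as CCAAT, 9 bases and CCACG on both strands. It was found in 7 of 11 chaperone genes (63.6%) and in 1 of 4 ERAD genes, against 39 of all 32851 promoters (0.119%). For this and the other motifs, members were counted as genes with a match in any promoter, and the background as single promoters. It was in 0 of 3 matched sensor genes, 0 of 5 ISR regulators and 0 of 7 ATF4 amino acid targets. The windows that follow are on the gene's own strand, 5' to 3', with the letters of the element in capitals.

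Hspa5, chr2:34772020-34772048, plus strand: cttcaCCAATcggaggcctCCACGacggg
Pdia6, chr12:17266486-17266514, plus strand: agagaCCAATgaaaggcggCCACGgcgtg
Dnajc3, chr14:118937822-118937850, plus strand: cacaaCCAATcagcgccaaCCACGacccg
Canx, chr11:50325795-50325823, minus strand: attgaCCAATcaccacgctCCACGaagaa
Creld2, chr15:88819515-88819543, plus strand: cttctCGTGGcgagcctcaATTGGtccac
Calr, chr8:84847070-84847098, minus strand: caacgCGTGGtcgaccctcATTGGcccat
Hsp90b1, chr10:86705633-86705661, minus strand: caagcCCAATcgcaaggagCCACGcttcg
Hsp90b1, chr10:86705528-86705556, minus strand: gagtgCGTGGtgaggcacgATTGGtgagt
Syvn1, chr19:6046527-6046555, plus strand: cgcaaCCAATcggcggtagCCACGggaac

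Creld2, Calr and the nearer element of Hsp90b1 carry it in the opposite orientation, and Hsp90b1 was the gene with a pair of elements. The distances to the start ranged from 44 to 26 bases in Syvn1 to 212 to 194 bases in Hsp90b1. The Hspa5 window lies in an exon of the GENCODE gene, whose annotated start precedes that of RefSeq, and the others in this set lie outside the GENCODE gene.

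The ATF4 composite site was searched as TGATG, any base and AA on both strands, and 1304 of all promoters held it (3.97%). It was found in 2 of 7 amino acid targets (Asns and Chac1), 2 of 5 ISR regulators (Atf3 and Trib3), 1 of 4 ERAD genes (Herpud1), and none of the 11 chaperone genes or 3 sensor genes. Herpud1 was also the member with the ER stress element II (ATTGG, any base, CCACG), which 12 of all promoters held (0.0365%), so that its promoter has a match for each arm. The UPR element core, TGACG directly followed by TGG, was in 0 of the 30 genes and in 222 of all promoters (0.676%). A match is a description of letters and not evidence of binding, and a missing match speaks only of these letters in this window. Capitals again mark the searched letters.

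Asns, chr6:7693215-7693242, minus strand: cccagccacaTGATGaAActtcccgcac
Chac1, chr2:119351039-119351066, plus strand: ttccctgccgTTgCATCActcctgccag
Atf3, chr1:191183426-191183453, minus strand: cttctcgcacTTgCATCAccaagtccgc
Herpud1, ATF4 site, chr8:94386307-94386334, plus strand: ccacggcgggTTgCATCAgcccgcaccc
Herpud1, ER stress element II, chr8:94386368-94386396, plus strand: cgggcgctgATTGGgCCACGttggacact

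**Figure D1:**
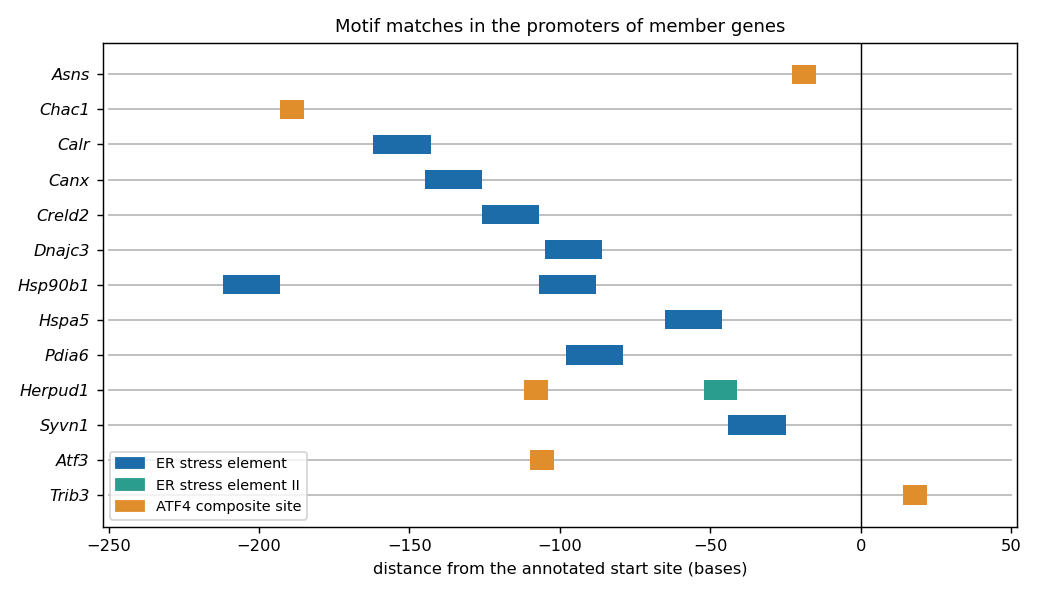
Positions of the searched motifs in the promoters of 13 members, as distance in bases from the RefSeq start site (line at 0), with each grey line spanning 250 bases before to 50 bases after it. Blue blocks are ER stress elements, the green block is the ER stress element II and orange blocks are ATF4 composite sites; Herpud1 has both a green and an orange block, and the Trib3 site alone lies after the start.

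The estimated counts of the 2 libraries of a mouse were summed, since the mouse is the replicate, and totals ranged from 11766467 to 25485899 per mouse. Totals were 15160600 ± 2307740 in controls (SD, n = 4) and 20734100 ± 4170600 in mutants (SD, n = 5), which did not pass (exact permutation test, 2-sided, p = 0.0556, adjusted p = 0.133 over 12 measures). The p-values set the difference between groups against the spread between these mice. The labels do not say whether the mice of a group were handled together, and a difference in handling could not be told apart from genotype. Transcripts typical of early and leukemic myeloid cells were detected in every mouse, such as Hoxa9 at 173 to 355 CPM (counts scaled to the library size), Myb at 269 to 422 CPM, Mpo at 437 to 1962 CPM, Kit at 16.1 to 27.4 CPM and Cd34 at 15.8 to 33.8 CPM. Kit stood at 23.5 to 27.4 CPM in controls and at 16.1 to 21.8 CPM in mutants, without overlap (adjusted p = 0.254 by edgeR). Every mutant lay below every control in 2.13% of all genes tested. Flt3, of the same list, ranged from 0.237 to 9.69 CPM. Plasma cells, which hold a large ER, were nearly absent by their defining markers: Jchain reached 0.281 CPM, Mzb1 1.07 CPM, Sdc1 0.241 CPM and Prdm1 0.0401 CPM at most. The B lineage transcripts Ighm (76.4 to 150.3 CPM) and Cd79b (42.3 to 68.0 CPM) were detected in every mouse. Igkc stood at 24.9 CPM in mutant 7 and at 0.950 CPM or less in the other 8 mice. Of the other context lists, 4 had summed levels with an adjusted p of 0.0952 (exact permutation tests). Those of G2 and M phase summed to 1414 to 1680 CPM in controls and 1573 to 1891 CPM in mutants (p = 0.0238), with all 14 genes above 0. Late neutrophil genes summed to 453 to 973 and 228 to 472 CPM (p = 0.0159), which overlap. Of these 10 genes, 5 lay above 0, and without Camp the sums were 168 to 423 and 153 to 351 CPM. Mast cell and basophil genes summed to 40.0 to 57.5 and 29.2 to 36.0 CPM (p = 0.00794, the smallest this exact permutation test can give), and without Gata2 to 8.69 to 20.6 and 9.15 to 17.9 CPM, which overlap. Megakaryocyte and platelet genes summed to 30.7 to 41.5 and 21.9 to 33.6 CPM (p = 0.0317), and without Gp1bb to 5.52 to 6.63 and 2.89 to 5.39 CPM. Itga2b, of that list, stood at 2.02 to 3.08 CPM in controls and at 0.380 to 1.01 CPM in mutants. It was called by edgeR (log2 fold change -1.89, adjusted p = 0.0427). The genes left out hold most of the difference of their sums and were chosen after the values were seen. Their part in the results below was not tested. In bulk RNA a lower level may mean fewer cells of a type or less RNA per cell, and these cannot be told apart.

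Of the 34 genes, 33 passed the filter on low counts, and none was called in mutant against control by edgeR's quasi-likelihood test at an adjusted p under 0.05. Across all 12973 genes tested, 9 were called (0.0694%). The lowest adjusted p of a member was 0.307, and DESeq2 and limma-voom also called none. Without adjustment, Asns and Phgdh were higher and Dnajb9 lower at a p under 0.05 (2 members and 1 member). Over all genes tested, 4.96% were higher and 4.89% lower at that level. No member had groups that did not overlap, against 1.87% of all genes with every mutant above every control and 2.13% with every mutant below.

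The log2 fold changes of the 33 genes, mutant over control, had a median of -0.06 and ran from -0.40 to 0.73, with 11 above 0 and 22 below. Over all genes tested the median was 0.01, with 6706 above 0 and 6267 below. By role, 10 of 13 chaperones, 4 of 4 sensor genes, 3 of 4 ERAD genes and 3 of 4 tested ISR regulators were below 0, and 6 of 8 ATF4 amino acid targets were above it. The medians in that order were -0.10, -0.07, -0.08, -0.19 and 0.19. These counts and medians describe the lists and are not tests of them.

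**Figure D2:**
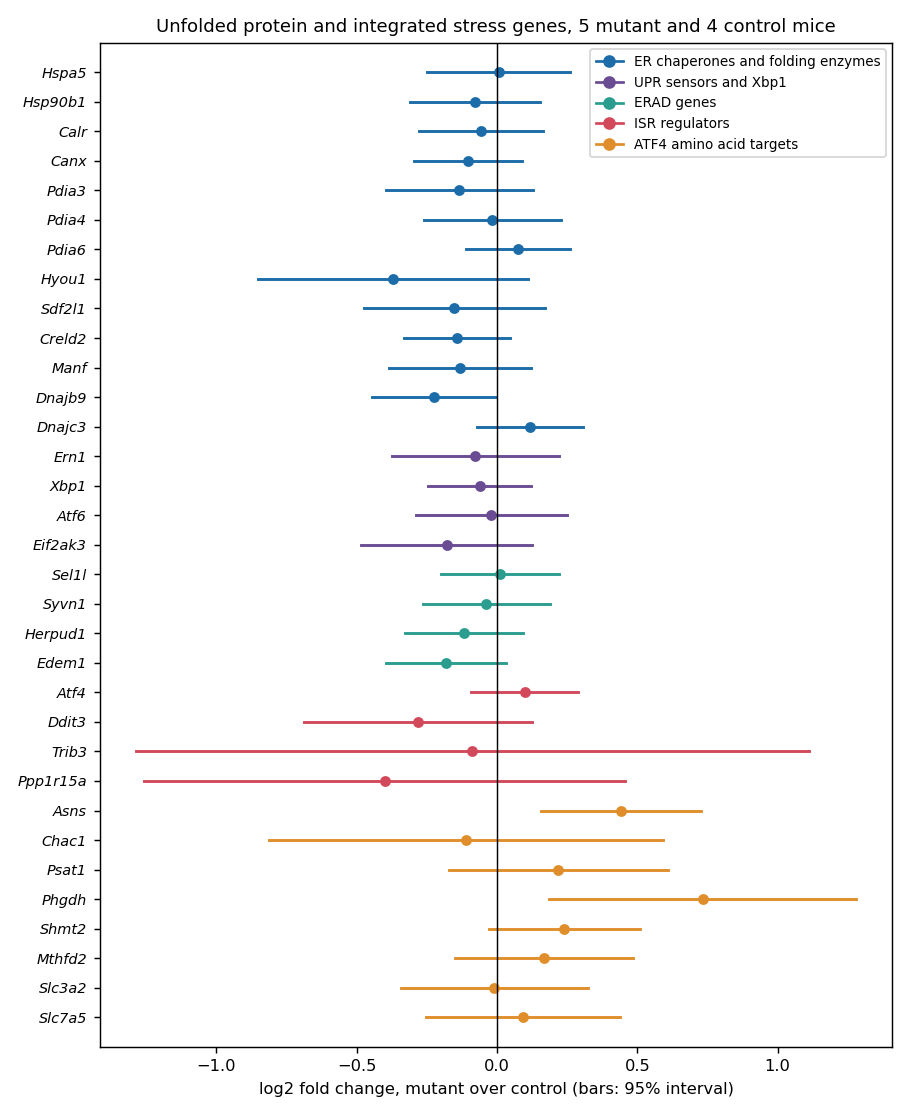
Log2 fold change of each of the 33 tested genes, mutant over control, with its 95% interval from the edgeR fit (5 mutant and 4 control mice), coloured by role. The intervals of Asns and Phgdh lie above 0, that of Dnajb9 ends just below 0, and the other 30 include 0.

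The intervals bound the size of any difference. For 25 of the 33 genes the 95% interval excluded a 1.5-fold change in both directions, and for 30 it excluded a 2-fold change. The share was highest among genes of the ER: 12 of 13 chaperones, 4 of 4 sensor genes and 4 of 4 ERAD genes excluded 1.5-fold, the exception being Hyou1. Among ISR regulators only Atf4 did so of 4 tested, and among ATF4 amino acid targets 4 of 8.

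The chaperones differed little between the groups. Hspa5 encodes BiP, the HSP70 chaperone of the ER lumen, whose release from the sensors switches them on. Its control mice stood at 221, 212, 188 and 229 CPM and its mutant mice 6, 7, 8, 10 and 12 at 195, 245, 169, 217 and 241 CPM. Mutants held both the highest and the lowest value, so the mutant range enclosed that of the controls. The log2 fold change was 0.01 (SE 0.12, 95% interval -0.25 to 0.26, adjusted p = 0.988 by edgeR).

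Dnajb9 encodes ERdj4, a BiP co-chaperone and a target of spliced XBP1, and was the chaperone gene with the smallest p. It stood at 22.0, 27.0, 25.5 and 29.2 CPM in controls 1 to 4 and at 21.3, 22.1, 20.3, 24.0 and 23.4 CPM in the mutants. Control 1 lay among the mutants, and the other 3 controls lay above all 5 mutants. The log2 fold change was -0.23 (SE 0.10, 95% interval -0.45 to -0.0048), a fold of 0.855, with an unadjusted p of 0.0458 and an adjusted p by edgeR of 0.497. The gene (chromosome 12, 44205559 to 44210326, minus strand, GRCm38) overlaps Mir5627 on the opposite strand.

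Hyou1 encodes the HSP110 relative that exchanges nucleotide on BiP. Controls stood at 6.48, 5.64, 3.27 and 5.51 CPM and mutants at 3.75, 3.29, 3.42, 4.35 and 5.46 CPM. Control 3 was the lowest of all 9 mice and the other 3 controls the highest. Its log2 fold change of -0.37 (SE 0.22, 95% interval -0.85 to 0.11, adjusted p = 0.597 by edgeR) was the lowest among the chaperones and did not exclude 0 or a 1.5-fold decrease.

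Creld2, a stress-induced ER protein with disulfide isomerase-like activity, stood at 60.0, 55.5, 59.4 and 65.8 CPM in controls and at 56.1, 53.0, 53.8, 61.0 and 48.6 CPM in mutants. Mutants 6 and 10 lay inside the control range and the other 3 mutants below it, and the log2 fold change was -0.14 (SE 0.09, adjusted p = 0.604 by edgeR). Dnajc3, the co-chaperone p58IPK that also restrains PERK, had the highest change among the chaperones, 0.12 (SE 0.09, adjusted p = 0.680 by edgeR). It stood at 65.7, 67.0, 66.6 and 73.8 CPM in controls and at 77.4, 81.8, 64.8, 74.1 and 72.6 CPM in mutants. Mutant 8 was the lowest mouse, and 3 of the other mutants exceeded every control.

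The other 8 genes of this role are given by their range. Calr, the lectin chaperone calreticulin, ranged from 1314 to 1717 CPM over the 9 mice (log2 fold change -0.06, SE 0.10), and its membrane-bound relative Canx from 47.9 to 59.9 CPM (-0.10, SE 0.09). Hsp90b1, the HSP90 of the ER known as GRP94, ranged from 239 to 335 CPM (-0.08, SE 0.11), with both ends among the mutants. Among the disulfide isomerases, Pdia3, the partner of calreticulin and calnexin, ranged from 123 to 183 CPM (-0.13, SE 0.12), Pdia4 from 14.9 to 21.5 CPM (-0.02, SE 0.11) and Pdia6 from 364 to 450.2 CPM (0.07, SE 0.09). Sdf2l1, a BiP cofactor, ranged from 26.2 to 43.9 CPM (-0.15, SE 0.15), and Manf, a secreted protein that binds BiP, from 178 to 268 CPM (-0.13, SE 0.12). Adjusted by edgeR, the p-values of these 8 genes lay between 0.727 and 0.971. The annotated Manf gene overlaps Rbm15b on its own strand and Dcaf1 on the other, so its count is uncertain to the extent that their reads were assigned to it.

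The order of the mutant mice was partly shared among the chaperones. Mutant 10 had the highest mutant value for 8 of the 13 genes, and mutants 8 and 12 the lowest for 5 and 4. The mean log2 level of the 13 genes, relative to the control mean, was 0.00, 0.03, -0.10 and 0.07 in controls 1 to 4 and -0.12, -0.10, -0.16, 0.04 and -0.11 in mutants 6, 7, 8, 10 and 12. Mutant 10 lay among the controls and control 3 among the mutants.

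**Figure D3:**
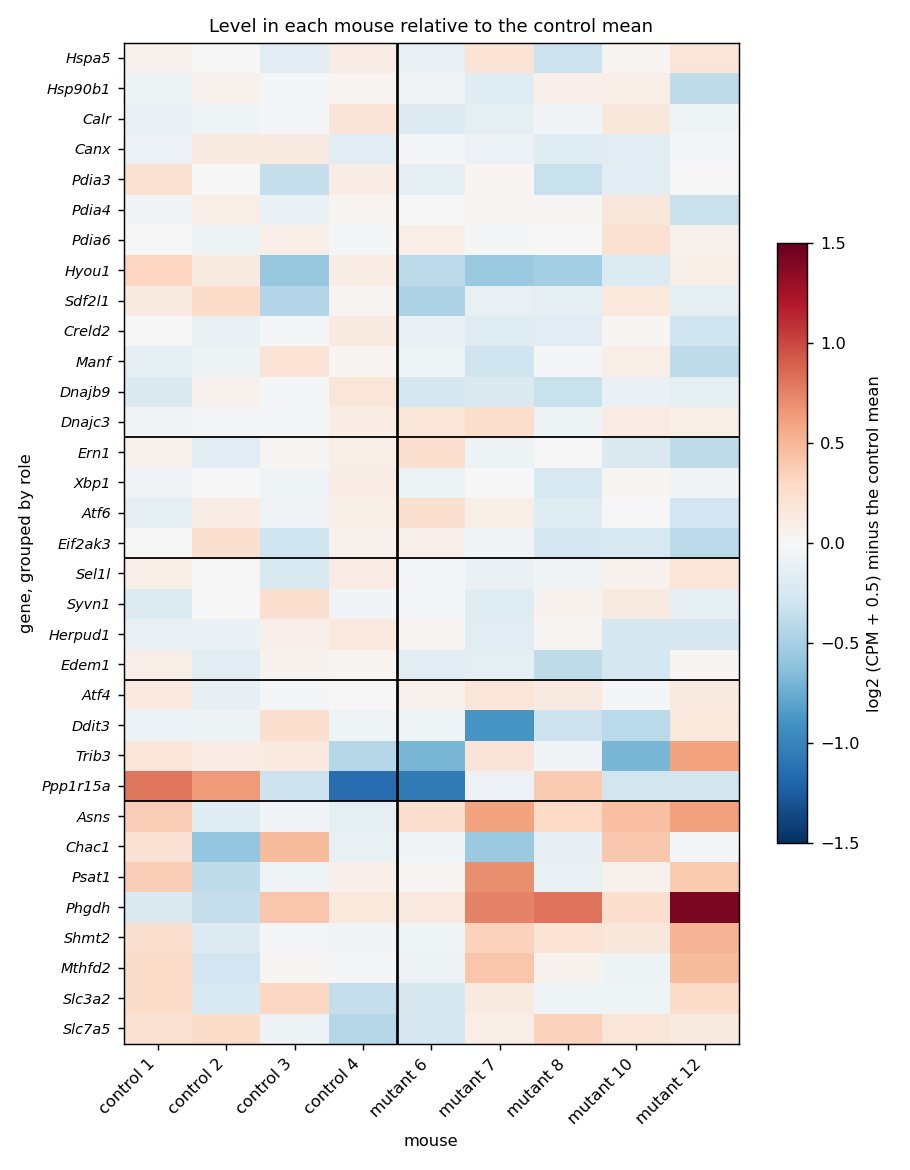
Level of each of the 33 tested genes (vertical axis, grouped by role) in each of the 9 mice (horizontal axis), as log2(CPM + 0.5) minus the control mean; red is higher and blue lower. The chaperone rows stay pale in both groups, Ppp1r15a is red in controls 1 and 2 and blue in control 4 and mutant 6, and Phgdh is darkest in mutant 12.

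The sensor genes were all slightly below 0. Eif2ak3, which encodes PERK, stood at 13.1, 15.7, 10.6 and 13.7 CPM in controls and at 13.9, 12.8, 10.9, 11.2 and 9.90 CPM in mutants. Control 3 lay with the lower mutants and mutant 6 with the higher controls, and the log2 fold change was -0.18 (SE 0.14, 95% interval -0.49 to 0.13, adjusted p = 0.697 by edgeR). Xbp1, the transcription factor gene whose transcript IRE1 splices, stood at 139, 145, 138 and 155 CPM in controls and at 137, 145, 123, 147 and 140 CPM in mutants. Mutant 8 was the lowest mouse and control 4 the highest, and the log2 fold change was -0.06 (SE 0.08, 95% interval -0.25 to 0.12, adjusted p = 0.836 by edgeR).

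Ern1, the gene of IRE1 itself, ranged from 9.55 to 14.9 CPM over the mice (log2 fold change -0.08, SE 0.14, adjusted p = 0.877 by edgeR). Atf6 ranged from 15.1 to 22.0 CPM (-0.02, SE 0.12, adjusted p = 0.969 by edgeR). Mutant 12 was the lowest of all 9 mice for 3 of the 4 sensor genes. The mean log2 level of the 4 genes relative to controls was 0.12 in mutant 6 and -0.27 in mutant 12, against -0.10 to 0.08 over the controls.

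ERAD returns misfolded protein to the cytosol for destruction. Edem1, the lectin that marks misfolded glycoproteins for it, stood at 124.8, 103.7, 121.8 and 119.5 CPM in controls and at 104.9, 105.9, 90.2, 97.7 and 119.5 CPM in mutants. Control 2 lay below 3 of the mutants, mutants 8 and 10 lay below all controls, and mutant 12 stood level with control 4. Its log2 fold change was -0.18 (SE 0.10, 95% interval -0.39 to 0.03, adjusted p = 0.569 by edgeR), with an unadjusted p of 0.0912. Herpud1, a membrane scaffold of the ERAD complex, stood at 66.9, 67.8, 76.3 and 80.1 CPM in controls and at 73.9, 65.1, 74.6, 61.2 and 60.6 CPM in mutants. Mutants 6 and 8 lay between the lower and the higher pair of controls and the other 3 mutants below all controls (log2 fold change -0.12, SE 0.10, adjusted p = 0.714 by edgeR). Herpud1 overlaps the antisense gene Gm15890, and without a stated strand setting their reads cannot be told apart.

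Sel1l and Syvn1 encode the adaptor and the ubiquitin ligase (HRD1) of the same complex. Sel1l ranged from 35.8 to 47.7 CPM (log2 fold change 0.01, SE 0.10) and Syvn1 from 50.6 to 69.3 CPM (-0.04, SE 0.10), and their p-values were 0.978 and 0.926 after adjustment by edgeR. The ERAD median moved furthest without control 1, to -0.13.

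The ISR regulators were the role whose intervals least often excluded a 1.5-fold change. Atf4 was the exception, as the transcript of the central factor of the ISR stood at 431, 357, 386 and 387 CPM in controls and at 406, 443, 427, 384 and 429 CPM in mutants. Control 1 lay among the higher mutants and mutant 10 among the lower controls. The log2 fold change was 0.10 (SE 0.09, 95% interval -0.09 to 0.29, adjusted p = 0.737 by edgeR).

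Ddit3 encodes CHOP, the transcription factor of the late and pro-apoptotic branch. It stood at 13.1, 13.2, 16.6 and 13.4 CPM in controls and at 13.4, 7.38, 11.2, 10.5 and 15.7 CPM in mutants. Mutants 7, 8 and 10 lay below all controls, and mutants 6 and 12 lay inside the control range. The log2 fold change was -0.28 (SE 0.19, 95% interval -0.69 to 0.12, adjusted p = 0.641 by edgeR), and with the total count of the mouse as a covariate it was 0.0050. Ddit3 has a second entry in the annotation, with 2 counts over all mice against 2011, and overlaps Mars on the opposite strand.

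Ppp1r15a encodes GADD34, which brings the phosphatase to eIF2alpha and closes the response, and had the widest spread between mice of the 33 genes. It stood at 9.87, 8.73, 4.29 and 2.19 CPM in controls and at 2.37, 5.06, 7.27, 4.40 and 4.39 CPM in mutants. The controls held the 2 highest values and the lowest, and the log2 fold change was -0.40 (SE 0.39, 95% interval -1.26 to 0.46, adjusted p = 0.768 by edgeR). The libraries of a mouse differed less than the mice did. They stood at 8.62 and 10.5 CPM in control 1, 2.24 and 2.16 CPM in control 4, and 2.92 and 2.06 CPM in mutant 6. The summed early response genes, a list with Fos, Jun and Egr1, were 544, 485, 287 and 256 CPM in controls and 210, 364, 326, 258 and 320 CPM in mutants. Controls 1 and 2 were the 2 highest mice and mutant 6 and control 4 the 2 lowest in both series, and the part of the early response in Ppp1r15a was not tested.

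Trib3 and Atf3 were near the limit of detection. Trib3, the pseudokinase that CHOP and ATF4 induce, had 9, 11, 10 and 5 counts in controls and 3, 18, 13, 3 and 19 counts in mutants (log2 fold change -0.09, SE 0.55, adjusted p = 0.969 by edgeR). Atf3, an ISR and early response factor, had 0, 5, 2 and 3 counts in controls and 0, 11, 0, 0 and 5 counts in mutants, did not pass the filter and was not tested. A level of 3 counts corresponds to 0.118 to 0.255 CPM in these mice, so no fold is given for Atf3. Both genes lay under 1 CPM on average in each group.

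**Figure D4:**
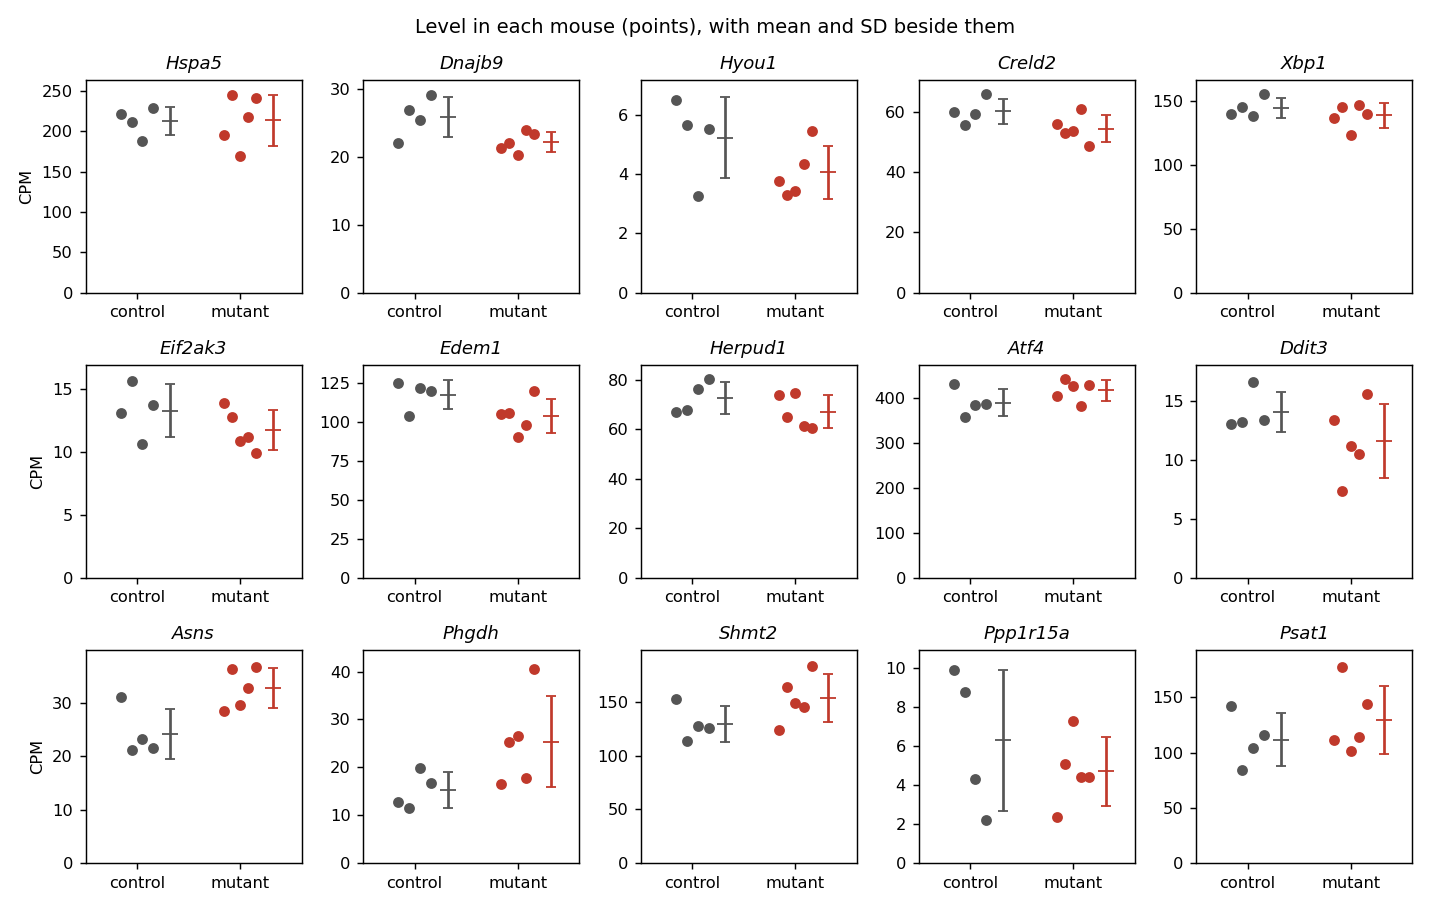
CPM in each mouse for 15 of the genes (points; 4 control mice in grey, 5 mutant mice in red), with the mean and SD of the group beside them and each vertical axis starting at 0. The groups overlap in every panel; 3 of 5 mutants lie above the highest control for Asns and for Phgdh.

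The ATF4 amino acid targets were the role with most genes above 0. Asns encodes asparagine synthetase, the textbook target of ATF4 under amino acid shortage, and its promoter window is given above. It stood at 31.0, 21.1, 23.2 and 21.4 CPM in controls and at 28.5, 36.4, 29.6, 32.7 and 36.8 CPM in mutants. Control 1 lay among the mutants, and the other 3 controls lay below all 5. The log2 fold change was 0.44 (SE 0.13, 95% interval 0.16 to 0.73), a fold of 1.36 (1.12 to 1.66), with an unadjusted p of 0.00532, rank 222 of all genes tested, and an adjusted p by edgeR of 0.307. Without control 1 the log2 fold change was 0.58 (adjusted p = 0.195 by edgeR), and omission of each mouse in turn gave 0.38 to 0.58. Both libraries of control 1 were high, at 35.7 and 28.9 CPM. The gene (chromosome 6, 7675169 to 7693254, minus strand, GRCm38) overlaps no other annotated gene.

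Phgdh encodes the first enzyme of serine synthesis and had the largest change of the 33 genes. It stood at 12.7, 11.6, 19.95 and 16.6 CPM in controls and at 16.6, 25.3, 26.5, 17.8 and 40.6 CPM in mutants. Mutants 6 and 10 lay inside the control range and mutants 7, 8 and 12 above it, with mutant 12 furthest. The log2 fold change was 0.73 (SE 0.25, 95% interval 0.19 to 1.28), a fold of 1.66 (1.14 to 2.43), with an unadjusted p of 0.0126 and an adjusted p by edgeR of 0.369. The libraries of mutant 12 stood at 44.2 and 38.4 CPM, and without that mouse the log2 fold change was 0.50. The gene (chromosome 3, 98313170 to 98339990, minus strand) overlaps no other.

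Serine feeds the one-carbon cycle of the mitochondrion, whose first step is Shmt2. That gene stood at 153, 113, 128 and 125.6 CPM in controls and at 124, 164, 149.6, 146 and 184 CPM in mutants. Control 1 lay among the mutants and mutant 6 among the controls, and the log2 fold change was 0.24 (SE 0.12, 95% interval -0.03 to 0.51, adjusted p = 0.544 by edgeR). Shmt2 overlaps Ndufa4l2 on the opposite strand, and its count is uncertain to that extent. Mthfd2, the next enzyme of the cycle, stood at 62.1, 41.7, 51.8 and 50.6 CPM in controls and at 48.2, 68.4, 52.9, 48.6 and 70.9 CPM in mutants (0.17, SE 0.15, adjusted p = 0.733 by edgeR). Psat1, the second enzyme of serine synthesis, stood at 142, 84.2, 104 and 116 CPM in controls and at 111, 177, 102, 114 and 144 CPM in mutants (0.22, SE 0.18, adjusted p = 0.713 by edgeR). In Shmt2, Mthfd2 and Psat1 mutants 7 and 12 stood above every control, and mutants 6, 8 and 10 lay inside the control range.

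The transporter and glutathione genes showed no such direction. Slc3a2 and Slc7a5 encode the heavy and light chain of the large neutral amino acid carrier. Slc3a2 ranged from 55.2 to 87.6 CPM, with both ends among the controls (log2 fold change -0.01, SE 0.15), and Slc7a5 from 13.3 to 23.0 CPM (0.09, SE 0.16), and their p-values were 0.987 and 0.869 after adjustment by edgeR. Chac1, which breaks down glutathione and is a sensitive target of the ISR, had 27, 17, 39 and 27 counts in controls and 31, 26, 38, 46 and 29 counts in mutants (-0.11, SE 0.32, adjusted p = 0.932 by edgeR).

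The order of the mice was partly shared among the 8 targets. Control 2 had the lowest value of all 9 mice for 6 of the 8 genes, and mutant 6 was the lowest mutant for 6 of 8, while mutant 12 was the highest mutant for 5. The mean log2 level relative to controls was 0.22, -0.24, 0.13 and -0.11 in controls and -0.03, 0.31, 0.18, 0.17 and 0.47 in mutants 6, 7, 8, 10 and 12. Mutant 6 lay among the controls, mutants 8 and 10 lay between the 2 highest controls, and mutants 7 and 12 lay above all controls. The total count was higher in the mutant group, as given above, and with it as a covariate the median of the 8 genes was 0.32 in place of 0.19. The G2 and M phase sum of mutant 12, 1573 CPM, was the lowest of the mutants, and its part in these values was not tested.

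The 2 libraries of each mouse show how precisely each gene was measured. The SD between the libraries of a mouse had a median of 0.181 on the log2(CPM + 0.5) scale over the 33 genes, and the SD between mice of a group, on the sums, a median of 0.185. Over all genes tested the medians were 0.249 and 0.215. For 12 of the 33 genes the spread between mice exceeded that between libraries, as it did for 4361 of all 12973 genes tested. The first SD is of single libraries and the second of sums of 2, so equality does not mark where mice differ beyond technical error. The excess was largest for Ppp1r15a (0.709 against 0.136) and Phgdh (0.446 against 0.148), and Mthfd2 also showed it (0.253 against 0.0948). Pdia4 (0.153 against 0.410), Sdf2l1 (0.262 against 0.438) and Chac1 (0.396 against 0.731) differed more between libraries of a mouse than between mice. Atf4 had the smallest spread between libraries, 0.0692.

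**Figure D5:**
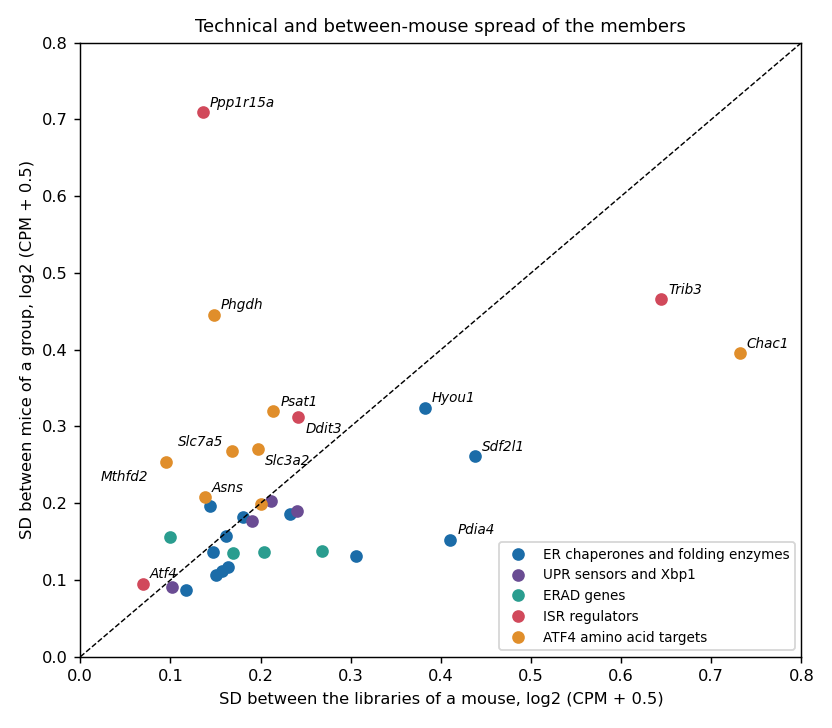
SD between the 2 libraries of a mouse (horizontal axis) against SD between mice of a group (vertical axis), both in log2(CPM + 0.5), for the 33 tested genes coloured by role; the dashed line marks equality. Ppp1r15a (0.709) and Phgdh (0.446) stand far above the line, and Chac1 and Trib3 lie to its right.

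A further 114 genes of the same pathways were examined beside the members, 106 of which passed the filter. None was called by edgeR (0.0694% of all genes tested were), nor by DESeq2 or limma-voom, and 5 were higher and 8 lower at a p under 0.05 before adjustment, where all genes tested gave 4.96% and 4.89%. Their median log2 fold change was 0.05, with 63 above 0 and 43 below. Groups did not overlap for 1 of the 106 genes with mutants above and for 3 with mutants below, against 1.87% and 2.13% of all genes tested.

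Other genes of ER folding had 7 of 23 tested above 0, with a median of -0.08. Dnajc10, the reductase ERdj5 that opens disulfides for ERAD, was the gene whose mutants all lay above the controls. It stood at 89.2, 78.2, 76.7 and 90.5 CPM in controls and at 110.6, 95.6, 101.6, 118 and 97.7 CPM in mutants (0.32 in log2 fold change, SE 0.09, adjusted p = 0.307 by edgeR). Ganab, the catalytic subunit of glucosidase II in the calnexin cycle, lay the other way without overlap, at 92.5, 87.0, 96.7 and 95.8 CPM in controls and at 83.2, 79.0, 81.4, 83.2 and 78.4 CPM in mutants (-0.20 in log2 fold change, SE 0.07, adjusted p = 0.403 by edgeR). The other 2 genes with all mutants below all controls were Erp44, a thiol retention factor (-0.21, SE 0.08, adjusted p = 0.417 by edgeR), and Derl1, a channel protein of ERAD (-0.17, SE 0.08, adjusted p = 0.507 by edgeR), which are named for that after their values were seen.

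Other ERAD genes had 14 of 21 above 0, with a median of 0.05. The pair of ER lectins in that list differed in sign: Erlec1 was at 11.5 ± 1.82 CPM in controls, against 14.6 ± 2.09 CPM in mutants (SD, n = 4 and 5; log2 fold change 0.35, SE 0.15, adjusted p = 0.446 by edgeR), and Os9 at 86.8 ± 6.13 and 72.5 ± 11.4 CPM (-0.26, SE 0.12, adjusted p = 0.503 by edgeR). Other UPR signalling genes had 6 of 11 above 0. Nfyb, a subunit of the NF-Y factor that binds the CCAAT box of the ER stress element, was at 34.3 ± 2.98 CPM in controls, against 44.2 ± 5.22 CPM in mutants (SD, n = 4 and 5; 0.37, SE 0.11, adjusted p = 0.307 by edgeR). Mutants 6, 7, 8 and 10 lay above all controls at 45.4 to 48.0 CPM, and mutant 12 lay among the controls at 35.0 CPM. Wfs1, an ER membrane protein that restrains ATF6, was at 3.53 ± 1.02 and 2.57 ± 0.782 CPM (-0.45, SE 0.27, adjusted p = 0.599 by edgeR).

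Other ISR genes, namely kinases, initiation factors and further regulators such as Cebpb, Atf5 and Oma1, had 15 of 19 above 0, with a median of 0.10. Eif2ak2, the kinase PKR, was at 17.1 ± 2.65 CPM in controls, against 21.6 ± 2.39 CPM in mutants (SD, n = 4 and 5; log2 fold change 0.33, SE 0.13, adjusted p = 0.408 by edgeR), and Eif2b4, a subunit of the exchange factor that phosphorylated eIF2alpha blocks, at 33.0 ± 1.93 and 28.3 ± 3.24 CPM (-0.22, SE 0.10, adjusted p = 0.498 by edgeR). Other ATF4 targets in serine and amino acid metabolism had 10 of 19 above 0, with a median of 0.09. Mthfd1l, the last mitochondrial enzyme of the one-carbon cycle that Shmt2 and Mthfd2 begin, was at 54.3 ± 7.07 CPM in controls, against 69.5 ± 7.38 CPM in mutants (0.36, SE 0.11, adjusted p = 0.329 by edgeR). Sesn2, a sestrin that ATF4 and p53 induce, lay the other way, at 9.74 ± 1.49 and 7.26 ± 1.57 CPM (-0.42, SE 0.17, adjusted p = 0.443 by edgeR).

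The list of cytosolic tRNA ligases, many of them ATF4 targets, also held the tRNA export gene Xpot. This list had 11 of 13 genes above 0, a median of 0.08 and no gene at an unadjusted p under 0.05. Gars and Wars, the ligases of glycine and tryptophan, had the smallest p, with log2 fold changes of 0.20 (SE 0.11, adjusted p = 0.574 by edgeR) and 0.18 (SE 0.10, adjusted p = 0.590 by edgeR). Fgf21, the secreted ISR target, had 0 counts in all 9 mice, and Cdnf, Aldh1l2, Slc1a4, Slc6a9, Vldlr, Gdf15 and Bcat1 did not pass the filter.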

How the data were processed

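The values are estimated counts per gene in 18 libraries, as the authors deposited them in one table. Bcl2fastq, FastQC, Salmon 1.3 and the build GRCm38 are named in the submitters' processing notes. Not given in the sources used here: annotation release, molecular identifiers, strand setting and how transcripts were summed to genes. IDs were matched on 18 characters to GENCODE M21, and 253 unmatched IDs held 0.00977% of the counts. Libraries were summed per mouse and the sums rounded, and library totals were 3825500 to 15071673. The floor of 3 counts covers counting error only.

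The whole table was tested in R 4.3.3 with edgeR 4.0.16 (2-sided quasi-likelihood F-test on TMM-scaled mouse sums, genes kept by filterByExpr at 10 counts), with Benjamini-Hochberg adjustment over 12973 genes. CPM used TMM factors and is not scaled for length, so levels are not compared between genes. Context sums used an exact permutation test over 126 splits of the mice, whose smallest p is 0.00794. The edgeR fit was also run on counts simulated with dispersions from these data, which cannot show how it behaves on the real mice. Alternatives were RLE and upper-quartile factors, DESeq2 1.42.0, limma-voom (limma 3.58.1) on mice or on libraries with a random effect of mouse, other filters, each technical library alone, the log2 total as covariate, calling at 0.1, and omission of each mouse. Omission of the first library of mutant 7 was chosen after seeing the data.

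Values in every mouse were given for the 3 chaperones and 3 ATF4 targets and the 2 genes of each other role with the smallest p, for Hspa5, Xbp1, Atf4 and Ddit3, and, chosen after their values were seen, for Dnajc3, Ppp1r15a, Trib3, Atf3, Psat1, Mthfd2 and Chac1. Other pathway genes were named if among the 2 of their list with the smallest p, and those named outside this rule were chosen after their values were seen. The members and lists were chosen with earlier results of these data known. Mouse numbers are not shared between groups, so no pairing was used.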

Additional observations from a re-analysis of the deposited data

Results flagged for a closer look

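In 3 of 66 combinations of group and member, the highest or lowest mouse stood far from the others by Dixon's criterion, which chance meets in about 1 of 20. Dnajc3 stood at 73.8 CPM in control 4, and the other controls between 65.7 and 67.0 CPM. Ddit3 stood at 16.6 CPM in control 3, and the other controls between 13.1 and 13.4 CPM. Trib3, a gene of few counts, stood at 0.296 CPM in control 4, and the other controls between 0.653 and 0.711 CPM.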

How the results depend on the processing

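No member and no other pathway gene was called under any of 21 alternatives. The count over all genes, 9, was 93 with DESeq2, 62 with limma-voom on 18 libraries, 21 with no filter, 3 in the second libraries, and 0 in the first libraries, for genes averaging 10 CPM or more, with the total count as covariate, and without the first library of mutant 7. Leaving out 1 mouse gave 0 to 7. Without 1 mouse, 0 to 1 members lay wholly above and 0 to 1 wholly below the controls. The share over all genes was not computed for these smaller groups, so these counts are not read as a result about the members. The causes were not tested. Leaving out 1 mouse moved the medians to -0.12 to -0.06 (chaperones), -0.13 to -0.03 (sensors), -0.13 to -0.053 (ERAD), -0.39 to -0.05 (ISR regulators) and 0.10 to 0.30 (ATF4 targets). With the covariate the ISR regulators had 0.05.

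Asns had an unadjusted p under 0.05 under all 21 alternatives, with log2 fold changes of 0.37 to 0.63 and adjusted p of 0.0646 to 0.982, and Phgdh likewise, with 0.50 to 0.89 and 0.157 to 0.982. Dnajb9 did in 9 of 21. The alternative of calling at 0.1 reuses the main fit, so its unadjusted p-values and directions could not differ, here and in the next counts. Of 936 values of 45 named genes, 891 kept their direction and 45 changed sign, all in genes with log2 changes near 0 or with few counts, and Ddit3. In the first libraries Calr was 0.042, Pdia4 0.046, Atf6 0.020, Chac1 0.48 and Slc7a5 -0.075. In the second, Syvn1 was 0.0093 and Slc3a2 0.045. With the covariate, Ddit3 was 0.0050, Trib3 0.10, Chac1 0.32 and Slc3a2 0.16. With upper-quartile factors Hspa5 was -0.0092 and Sel1l -0.0043. With limma-voom on mice Hspa5 was -0.0032 and Slc3a2 0.013, and on libraries Chac1 0.13. For genes averaging 10 CPM or more Hspa5 was -0.0032, and with no filter Slc3a2 0.0023. Without the first library of mutant 7 Hspa5 was -0.072 and Slc3a2 0.031. Leaving out 1 mouse gave -0.047 to 0.080 (Hspa5), -0.12 to 0.011 (Calr), -0.068 to 0.053 (Pdia4), -0.092 to 0.039 (Atf6), -0.059 to 0.054 (Sel1l), -0.10 to 0.051 (Syvn1), -0.47 to 0.13 (Trib3), -0.32 to 0.12 (Chac1), -0.12 to 0.099 (Slc3a2) and -0.034 to 0.19 (Slc7a5). Scalings moved the median of all genes by at most 0.02. No paired analysis was possible because the groups share no mouse numbers.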
